A study of Mus musculus with 2 samples.

Results

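Insulin-like growth factor 1 (Igf1), the receptors Igf1r and Igf2r, and the binding proteins Igfbp3, Igfbp4, Igfbp5, Igfbp6 and Igfbp7 were described across the non-myocytes of the adult mouse heart. These 8 genes were chosen by symbol, and all 8 were found among the 27998 genes of the count tables of both animals. The cells came from the ventricles of 2 wild-type C57BL/6 mice aged 10 to 12 weeks, each an independent animal with 1 library of the droplet 3' kit. No treatment or genotype was compared, so the comparisons are between cell classes of the same hearts, and every class shares those 2 animals. The ventricles were digested by perfusion, a slow spin (50 g) took the myocytes away, and cells that excluded a dye of dead cells were sorted, so myocytes appear in these data only as traces of RNA.

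IGF1 is a secreted growth factor that acts through the receptor tyrosine kinase IGF1R and, from there, through the insulin receptor substrates, PI3 kinase and AKT. IGF2R, also known as the cation-independent mannose 6-phosphate receptor, takes up IGF2 for breakdown and carries lysosomal enzymes, and does not signal as IGF1R does. The binding proteins hold IGFs in blood and in the matrix and release them when cut by proteases. IGFBP7 binds IGFs weakly and is best known as a matrix protein of vessels. In the heart, IGF1 is known for its part in myocyte growth and survival, and both fibroblasts and resident macrophages are known to make it.

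Classes were set by UMIs, tags that each mark 1 captured RNA molecule. A fibroblast had at least 5 UMIs of Dcn (decorin), a mural cell (pericyte or smooth muscle) at least 4 of Rgs5, Kcnj8 and Vtn together, an endothelial cell at least 2 of Pecam1, Cdh5 and Egfl7, and a macrophage at least 15 of the complement genes C1qa, C1qb and C1qc. Cells that passed several of these gates (188 in mouse 1 and 130 in mouse 2) were put in no class. This gave 1860 and 1303 fibroblasts, 63 and 42 mural cells, 929 and 1269 endothelial cells and 2997 and 2361 macrophages in mouse 1 and mouse 2, out of 6608 and 5687 cells kept. Levels are UMIs of the gene scaled to 1e+06 UMIs of the summed class (CPM). The summed classes ran from 55838 UMIs (mural, mouse 2) to 9239668 (macrophage, mouse 1), so mural values rest on few molecules. In fibroblasts, endothelium and macrophages, further markers of the other classes had medians of at most 2.50% of their own level. Single markers went higher. The highest endothelial marker reached 34.4% and 47.4% of its endothelial level in fibroblasts, and 21.4% and 15.3% in macrophages. The 10 further fibroblast markers summed to 9745 and 10608 CPM in fibroblasts, against 170 and 145 CPM in endothelium and 98.1 and 90.3 CPM in macrophages. The mural class was less clean, since the 10 endothelial markers summed to 5686 and 6089 CPM there, against 27605 and 29682 CPM in endothelium. The part of these endothelial transcripts in the mural values was not tested. The tables of the 2 mice shared 65 cell barcodes, of which 52 were kept, and these were treated as separate cells. Cardiac myocyte markers differed between the mice, at 420 and 178 CPM in fibroblasts, 956 and 339 CPM in endothelium and 787 and 317 CPM in macrophages.

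Classes were compared with edgeR's quasi-likelihood test on the summed UMIs, with the mouse as a block. A gene was called when its Benjamini-Hochberg adjusted p over all genes tested was below 0.05 and its log2 fold change was at least 1 in size. Each fold change is the first class named over the second, with its standard error (SE). Of the 8 genes, 3 were called higher and 1 lower in fibroblasts than in endothelium, where 16.4% of all 11683 genes tested were called higher and 14.4% lower (30.8% in all). In fibroblasts over macrophages 6 were called higher and 0 lower by edgeR, against 20% and 17.8% of all genes (37.8% in all), with 0 lower at an unadjusted p under 0.05 and 0 lower by DESeq2. In fibroblasts over mural cells 4 were higher and 1 lower, against 7.17% and 4.03% of all genes (11.2% in all). In endothelium over macrophages 5 were higher and 2 lower, against 16.8% and 16.5% (33.3% in all). In mural cells 1 was higher than in endothelium, against 4.55% of all genes higher and 7.28% lower (11.8% in all). In mural cells over macrophages 5 were higher and 2 lower, against 9.12% and 13.5% (22.6% in all). Calls between these classes were thus common among all genes. The median log2 fold change of all genes moved by over 0.1 when summed UMIs alone replaced TMM scaling, by 0.36 for fibroblasts over macrophages, by -0.47 for fibroblasts over mural cells, by 0.42 for endothelium over macrophages, by 0.41 for mural cells over endothelium, by 0.83 for mural cells over macrophages, and within endothelium by 0.29 for endocardial and 0.62 for arterial cells over the rest. Log2 fold changes are therefore relative to the TMM scale.

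**Figure D1:**
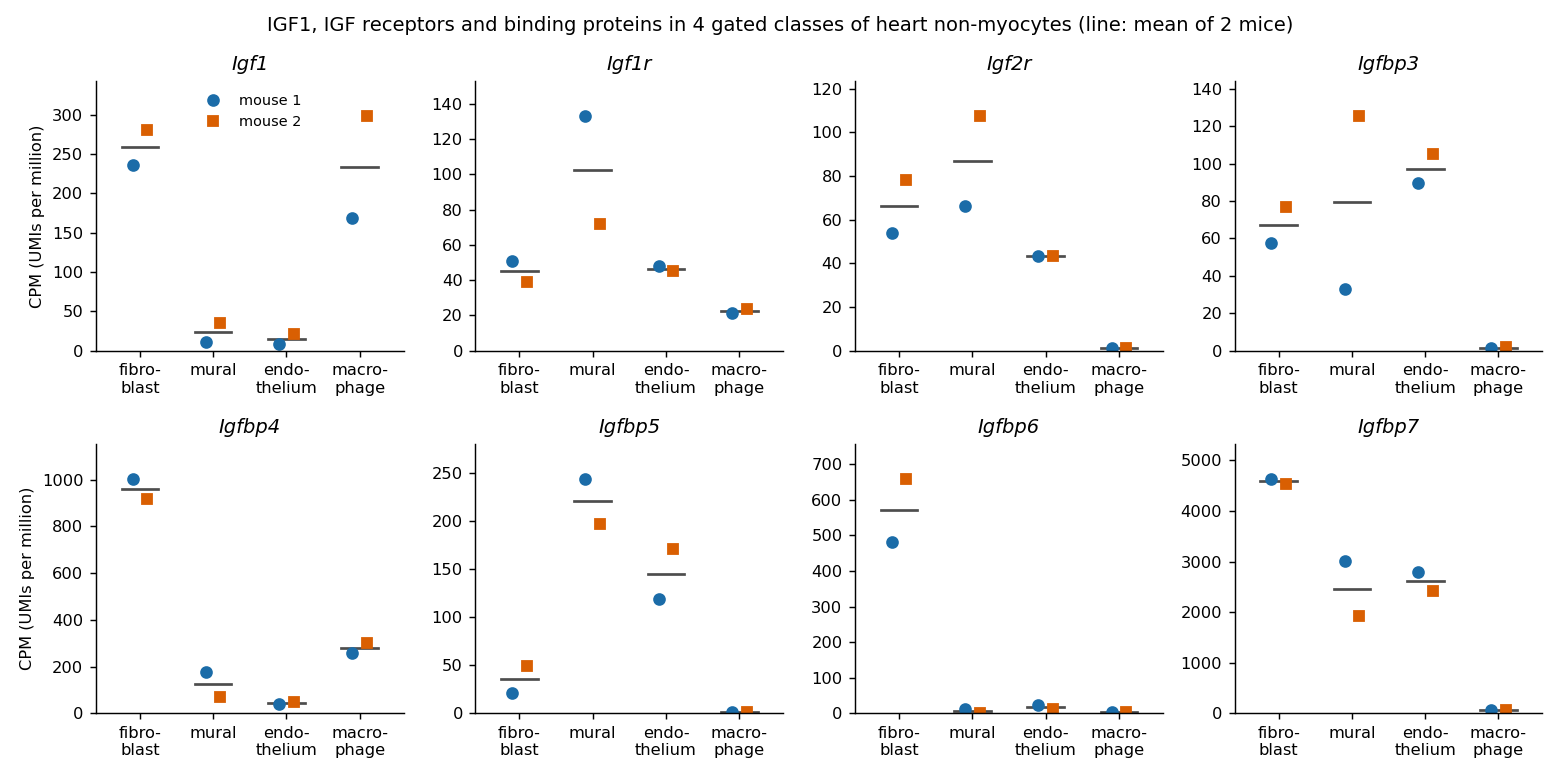
Level of each gene (vertical axis, CPM, linear from 0) in fibroblasts, mural cells, endothelium and macrophages (horizontal axis) of mouse 1 (circles) and mouse 2 (squares), with a line at the mean of the 2 mice. Igf1 stood high in fibroblasts and macrophages, Igfbp6 stood high in fibroblasts, and Igf2r, Igfbp3 and Igfbp5 were near 0 in macrophages.

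The ligand gene Igf1 (mm10 chromosome 10, bases 87858265 to 87937042, plus strand) was found in fibroblasts and macrophages. It had 236 and 280 CPM in the fibroblasts of mouse 1 and mouse 2, 11.1 and 35.8 CPM in mural cells (1 and 2 UMIs), 8.20 and 20.8 CPM in endothelium, and 169 and 298 CPM in macrophages. Both mice were high in fibroblasts and macrophages and low in mural cells and endothelium, with no overlap between the high and the low classes. Igf1 was higher in fibroblasts than in endothelium by a log2 fold change of 4.23 ± 0.22 (edgeR adjusted p = 1.34e-15). It was lower in endothelium than in macrophages by -4.38 ± 0.22 (edgeR adjusted p = 3.24e-16). Between fibroblasts and macrophages the difference was -0.15 ± 0.15 (edgeR adjusted p = 0.412), the ranges of the mice overlapped, and summed UMIs with no TMM scaling gave 0.21, so no direction is read from it. Over the 3 mural UMIs, the pooled level was 12.3 times higher in fibroblasts than in mural cells (95% counting interval 4.21 to 59.8). Intervals here cover counting error only.

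Macrophages were the most numerous class. They held 53.4% and 65.3% of all Igf1 UMIs in kept cells of mouse 1 and mouse 2, while fibroblasts held 42.8% and 30.8%. The parts of cell number, depth and level in these shares were not tested. These shares follow the digestion and the sort as well as the tissue. In single cells, 38.5% and 40.8% of fibroblasts and 34.3% and 46.8% of macrophages had an Igf1 UMI, against 1.59% and 4.76% of mural cells and 1.40% and 3.23% of endothelial cells. Median depths were 2752 and 2471 UMIs in fibroblasts, 2845 and 2616 in macrophages, 1295 and 1293.5 in mural cells and 1463 and 1410 in endothelium. With cells thinned to 1000 UMIs each, the shares were 19.9% and 23.0% of fibroblasts, 14.2% and 24.0% of macrophages and 1.03% and 2.12% of endothelial cells. Fibroblast markers in macrophages reached a median of 0.991% and 0.772% of their own level in fibroblasts (highest 1.51% and 1.53%), whereas Igf1 in macrophages was at 71.3% and 106% of its level in fibroblasts. Outside the 4 classes, monocytes or dendritic cells (94 and 63 cells) had 15.6 and 11.9 CPM of Igf1, and T cells (89 and 69 cells) had 2 and 0 UMIs of it.

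The binding protein gene Igfbp4 (chromosome 11, bases 99041244 to 99054392, plus strand), whose protein holds IGFs until it is cut by PAPPA, had its high values in the same classes. It had 1004 and 916 CPM in fibroblasts, 177 and 71.6 CPM in mural cells, 38.5 and 49.5 CPM in endothelium, and 257 and 300 CPM in macrophages. Fibroblasts were highest and macrophages next in both mice, and no class overlapped with either of them. Igfbp4 was higher in fibroblasts than in macrophages by 1.43 ± 0.15 (edgeR adjusted p = 2.58e-09) and higher in fibroblasts than in endothelium by 4.50 ± 0.19 (edgeR adjusted p = 6.28e-18). It was lower in endothelium than in macrophages by -3.07 ± 0.18 (edgeR adjusted p = 1.29e-14). In macrophages it stood at 25.6% and 32.7% of its fibroblast level, above the highest of the fibroblast markers there. An Igfbp4 UMI was found in 55.8% and 57.7% of the macrophages with an Igf1 UMI, against 41.5% and 43.8% of the macrophages without one. Among fibroblasts the shares were 91.1% and 86.3%, against 83.8% and 77.8%. Depth per cell was not matched in this comparison, and its part was not tested.

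Igf1 and Igfbp4 were called in the same direction in 4 of the 6 comparisons of classes, so the RefSeq sequence around their starts is given (mouse build GRCm38.p6, 100 bases before to 20 after the start, plus strand of the chromosome for both). All 8 genes matched the table of 32841 promoters. The start is that of RefSeq and can differ from the outer bound of a gene given here, which is GENCODE's: the RefSeq start of Igf1 lies inside the GENCODE gene, and that of Igf1r lies before it. The TATA box (TATAAA), the GC box (GGGCGG) and the CCAAT box (CCAAT) were searched on both strands, and matches are in capitals.
Igf1: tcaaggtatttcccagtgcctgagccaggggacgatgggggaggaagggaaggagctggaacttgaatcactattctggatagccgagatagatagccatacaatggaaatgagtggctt
Igfbp4: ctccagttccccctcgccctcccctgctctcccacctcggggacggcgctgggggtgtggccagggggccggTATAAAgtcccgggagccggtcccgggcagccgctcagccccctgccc
The Igf1 window (chr10:87861011-87861130) held none of the motifs, and the Igfbp4 window (chr11:99041144-99041263) held TATAAA, which 6.10% of all windows of this length hold. GC content was 50.0% in the Igf1 window and 75.8% in the Igfbp4 window, against a median of 55% over all windows. A match describes these letters only.

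The receptor gene Igf1r (chromosome 7, bases 67952827 to 68233668, plus strand), which codes for the kinase that IGF1 binds, was low and broad. It had 51.1 and 39.1 CPM in fibroblasts, 133 and 71.6 CPM in mural cells (12 and 4 UMIs), 47.9 and 45.1 CPM in endothelium, and 21.3 and 23.4 CPM in macrophages. Mural cells were highest and macrophages lowest in both mice, while fibroblasts and endothelium overlapped. Igf1r was higher in mural cells than in macrophages by 1.44 ± 0.44 (edgeR adjusted p = 0.0148), the only comparison in which it was called. This call was lost when doublets and cells of several gates were kept (0.92, edgeR adjusted p = 0.0195, range over the alternatives 0.00032 to 0.026). Against macrophages the difference was 0.66 ± 0.18 for fibroblasts and 0.64 ± 0.20 for endothelium (edgeR adjusted p = 0.00204 and 0.00701), below the fold needed for a call. On summed UMIs alone, with no TMM scaling, these became 1.02 and 1.06, which passed it.

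The receptor gene Igf2r (chromosome 17, bases 12682406 to 12769664, minus strand) was nearly lacking in macrophages. It had 54.1 and 78.2 CPM in fibroblasts, 66.5 and 107 CPM in mural cells (6 UMIs in each mouse), 43.5 and 43.6 CPM in endothelium, and 1.30 and 1.22 CPM in macrophages (12 and 8 UMIs). All mice of the first 3 classes lay above both mice of the macrophages. Igf2r was higher in fibroblasts than in macrophages by 5.27 ± 0.26 (edgeR adjusted p = 1.09e-16) and higher in endothelium than in macrophages by 4.63 ± 0.29 (edgeR adjusted p = 4.63e-14). The fold of mural cells over macrophages was 5.17 ± 0.66 (edgeR adjusted p = 4.19e-07). An Igf2r UMI was found in 0.400% and 0.339% of macrophages, whose median depth was 2845 and 2616 UMIs, against 13.8% and 17.4% of fibroblasts at 2752 and 2471 UMIs. Its macrophage level, 2.40% and 1.56% of that in fibroblasts, lay just above the highest of the fibroblast markers (1.51% and 1.53%). M6pr, the gene of the other mannose 6-phosphate receptor, went the other way, at 72.2 ± 4.43 CPM in fibroblasts and 119 ± 5.73 CPM in macrophages (SD, n = 2 each; log2 fold change -1.07 ± 0.15, edgeR adjusted p = 5.01e-07, called in 7 of the 10 alternatives). The antisense gene Airn (bases 12741311 to 12860136) overlaps only the part of Igf2r nearest its start. Airn was counted as a gene of its own, at 23.5 and 38.8 CPM in fibroblasts and 0.541 and 0.304 CPM in macrophages. In the shared part, reads of Airn and Igf2r cannot be told apart where counting ignored strand, which the sources used here do not state.

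The receptors' starts are shown for comparison, read 5' to 3' on each gene's own strand, from the same RefSeq table and with the same motifs in capitals.
Igf1r: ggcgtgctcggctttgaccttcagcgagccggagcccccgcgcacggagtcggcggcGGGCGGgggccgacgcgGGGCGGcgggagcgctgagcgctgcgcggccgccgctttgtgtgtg
Igf2r: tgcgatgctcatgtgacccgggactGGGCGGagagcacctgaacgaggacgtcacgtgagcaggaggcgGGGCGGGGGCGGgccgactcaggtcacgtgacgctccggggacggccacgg
Both windows (chr7:67952157-67952276 and chr17:12769687-12769806) held GGGCGG, which 26.7% of all windows hold, and neither held the TATA or the CCAAT box. Their GC content was 79.2% for Igf1r and 71.7% for Igf2r. The window of Igfbp7 also held GGGCGG, that of Igfbp6 held CCAAT (20.9% of all windows), and those of Igfbp3 and Igfbp5 held none of the motifs.

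Igfbp6 (chromosome 15, bases 102144362 to 102149511, plus strand) codes for a binding protein that prefers IGF2 to IGF1, and its UMIs came almost wholly from fibroblasts. It had 482 and 658 CPM in fibroblasts, 11.1 and 0 CPM in mural cells (1 and 0 UMIs), 24.6 and 11.4 CPM in endothelium, and 4.76 and 3.80 CPM in macrophages. Fibroblasts lay far above the other 3 classes in both mice and held 91.9% and 92.2% of all Igfbp6 UMIs. The log2 fold change was 5.08 ± 0.23 for fibroblasts over endothelium (edgeR adjusted p = 7.19e-17) and 6.66 ± 0.24 for fibroblasts over macrophages (edgeR adjusted p = 1.09e-19). Over the 1 mural UMI, the pooled fibroblast level was 80.3 times that of mural cells (95% counting interval 14.4 to 3173). Its level in macrophages was 0.988% and 0.577% of that in fibroblasts, inside the range of the fibroblast markers there.

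Igfbp7 (chromosome 5, bases 77349240 to 77408041, minus strand) was found in 99.4% and 98.8% of fibroblasts, 95.2% and 90.5% of mural cells and 88.8% and 83.9% of endothelial cells, at median depths of 2752 and 2471, 1295 and 1293.5, and 1463 and 1410 UMIs. It had 4636 and 4539 CPM in fibroblasts, 3004 and 1934 CPM in mural cells, 2789 and 2427 CPM in endothelium, and 65.0 and 59.3 CPM in macrophages. Fibroblasts were highest in both mice, mural cells and endothelium overlapped, and macrophages were lowest. Igfbp7 was higher in fibroblasts than in macrophages by 5.85 ± 0.16 (edgeR adjusted p = 9.70e-22) and higher in endothelium than in macrophages by 4.97 ± 0.16 (edgeR adjusted p = 1.16e-20). Fibroblasts exceeded endothelium by 0.88 ± 0.13 (edgeR adjusted p = 2.24e-06), below the fold needed for a call, and exceeded mural cells by 1.37 ± 0.15 (edgeR adjusted p = 3.29e-08). The call over mural cells was lost on summed UMIs alone (0.89) and when doublets and cells of several gates were kept (0.93). The macrophage level was 1.40% and 1.31% of that in fibroblasts, inside the range of the fibroblast markers there.

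Igfbp3 (chromosome 11, bases 7206086 to 7213923, minus strand) codes for the main IGF carrier of blood. Igfbp5 (chromosome 1, bases 72857932 to 72874884, minus strand) codes for a protein that binds matrix. Both were higher in fibroblasts, mural cells and endothelium than in macrophages. The Igfbp5 of fibroblasts and of endothelium came in large part from few cells, given with the splits below. Igfbp3 had 57.4 and 76.6 CPM in fibroblasts, 33.3 and 125 CPM in mural cells (3 and 7 UMIs), 89.6 and 105 CPM in endothelium, and 1.30 and 1.98 CPM in macrophages. Endothelium was above fibroblasts in both mice, the mural values spanned both, and macrophages were apart. It was higher in endothelium than in macrophages by 5.47 ± 0.25 (edgeR adjusted p = 3.41e-17) and higher in fibroblasts than in macrophages by 4.98 ± 0.24 (edgeR adjusted p = 1.48e-16), while fibroblasts over endothelium gave -0.49 ± 0.17 (edgeR adjusted p = 0.0187), under the fold for a call. Igfbp5 had 21.2 and 49.4 CPM in fibroblasts, 244 and 197 CPM in mural cells (22 and 11 UMIs), 119 and 171 CPM in endothelium, and 1.41 and 1.06 CPM in macrophages. Mural cells and endothelium lay above fibroblasts in both mice, and no class overlapped another. Igfbp5 was lower in fibroblasts than in mural cells by -2.34 ± 0.38 (edgeR adjusted p = 2.91e-05) and lower in fibroblasts than in endothelium by -2.05 ± 0.20 (edgeR adjusted p = 6.62e-10), and it was higher in endothelium than in macrophages by 6.34 ± 0.28 (edgeR adjusted p = 2.10e-17). Mural cells over endothelium gave 0.29 ± 0.33 (edgeR adjusted p = 0.663).

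Between mural cells and endothelium, Igfbp4 was the gene called, at 1.21 ± 0.38 (edgeR adjusted p = 0.0327). It rested on 16 and 4 UMIs in mural cells, against 61 and 100 UMIs in endothelium. The call was lost under 5 of the 10 alternatives, among them the fit without the replicate block (edgeR adjusted p = 0.0629, range over the alternatives 0.0032 to 0.97), and the fold was -0.043 when doublets and cells of several gates were kept. The fibroblast markers in mural cells, at a median of 12.9% and 8.96% of their fibroblast level, stood beside an Igfbp4 level of 17.7% and 7.82% of that in fibroblasts. Their part in the result was not tested.

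**Figure D2:**
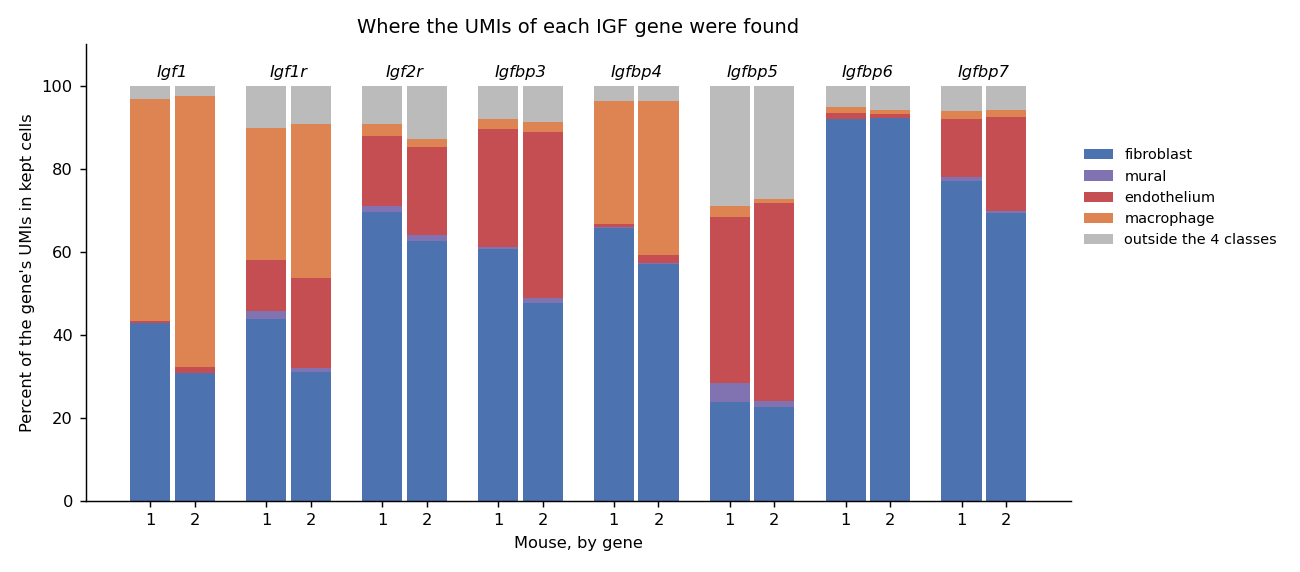
Percent of the UMIs of each gene, over all kept cells of a mouse (1 bar per mouse), that lay in fibroblasts, mural cells, endothelium, macrophages and cells outside the 4 classes. Macrophages held 53.4% and 65.3% of Igf1, fibroblasts 91.9% and 92.2% of Igfbp6, and cells outside the classes 29.0% and 27.2% of Igfbp5.

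Within fibroblasts, cells with at least 2 UMIs of Pi16, a marker of adventitial fibroblasts, were compared with the other fibroblasts. There were 1054 and 558 Pi16 fibroblasts in mouse 1 and mouse 2, and 806 and 745 others. The adventitial markers that did not define the split summed to 2367 and 1757 CPM in Pi16 fibroblasts, against 870 and 484 CPM in the others. Of the 8 genes, 2 were called, both lower, where 0.719% of 11536 genes were called lower and 0.737% higher (1.46% in all).

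Igfbp3 had 20.2 and 18.0 CPM in Pi16 fibroblasts and 118 and 133 CPM in other fibroblasts. The groups did not overlap, and Pi16 fibroblasts were lower by -2.66 ± 0.21 (edgeR adjusted p = 7.73e-14). It was called under all 10 alternatives. By Pi16 UMIs per cell, Igfbp3 was at 155 and 156 CPM in cells with none and 44.4 and 71.3 CPM with 1. It was at 71.9 and 58.5 CPM with 2, and 11.7 and 8.42 CPM with at least 3. Cells just outside and just inside the threshold of 2 thus lay between those with none and those with at least 3. Among the other fibroblasts, 14.1% and 13.8% of cells had an Igfbp3 UMI, and 22 and 26 cells with at least 3 of them held 49.4% and 56.2% of its UMIs. The fibroblast markers in these cells summed to 9959 and 8491 CPM, against 9451 and 10547 CPM in the cells with none.

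Igfbp6 ran the other way. It had 589 and 874 CPM in Pi16 fibroblasts and 309 and 452 CPM in other fibroblasts, higher in Pi16 fibroblasts in each mouse. The fold was 0.94 ± 0.18 (edgeR adjusted p = 0.000314), just under the size needed for a call, and 3 of the 10 alternatives brought it past that size, with both thresholds doubled (1.12), with doublets kept (1.08) and with mesothelial and lymphatic cells left out (1.18). Over the alternatives the adjusted p ran from 8.9e-08 to 1, which DESeq2 gave, and it was also above 0.05 without the replicate block. From cells with no Pi16 UMI to those with at least 3, the level was 279.5, 368, 294 and 637 CPM in mouse 1 and 407, 572, 533 and 954 CPM in mouse 2. Igf1 had 215 and 217 CPM in Pi16 fibroblasts and 272 and 341 CPM in others, at -0.46 ± 0.17 (edgeR adjusted p = 0.210). Igfbp4, Igfbp7, Igf1r and Igf2r had fold changes between -0.14 and 0.17, none of them called.

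**Figure D3:**
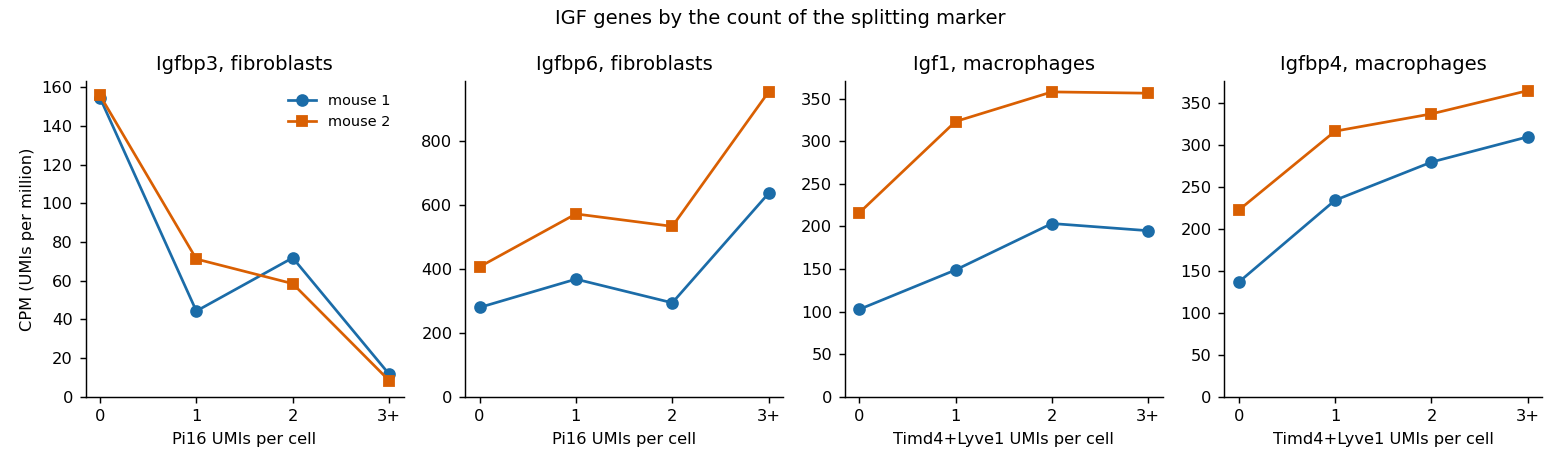
Level (vertical axis, CPM) of Igfbp3 and Igfbp6 in fibroblasts by their count of Pi16 UMIs, and of Igf1 and Igfbp4 in macrophages by their count of Timd4 and Lyve1 UMIs (horizontal axis, 0 to 3 or more), for mouse 1 (circles) and mouse 2 (squares). Igfbp3 was at 155 and 156 CPM in fibroblasts with no Pi16 UMI and at 11.7 and 8.42 CPM in those with at least 3.

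Igfbp5 was the other gene called in this split, and its value turned on a few cells. It had 16.2 and 22.3 CPM in Pi16 fibroblasts and 29.3 and 75.2 CPM in other fibroblasts, a fold of -1.35 ± 0.24 (edgeR adjusted p = 1.00e-04). In fibroblasts as a whole, 13 and 11 cells with at least 3 Igfbp5 UMIs held 69.6% and 87.7% of its UMIs. These cells carried markers of mesothelium, the sheet that covers the heart, at 3592 and 2583 CPM, against 0.387 and 2.81 CPM in the fibroblasts with no Igfbp5 UMI. The 5 mesothelial markers summed to 0.612 and 0.620 CPM in Pi16 fibroblasts and to 95.3 and 75.2 CPM in other fibroblasts, with 3 and 4 of them at 0 in Pi16 fibroblasts and none at 0 in the others. An alternative added after seeing these data left out cells with at least 2 UMIs of 4 mesothelial or 3 lymphatic markers, which removed 1 and 1 of the Pi16 fibroblasts and 9 and 8 of the others. Igfbp5 was then at 15.0 and 19.9 CPM in Pi16 fibroblasts and 4.03 and 13.8 CPM in other fibroblasts, and the fold was 1.06 (edgeR adjusted p = 0.0791, range over the alternatives 2.5e-06 to 0.13), so the direction turned. The call was also lost without the replicate block (-1.44, edgeR adjusted p = 0.133). Over all fibroblasts the same step lowered Igfbp5 to 10.9 and 16.8 CPM, and the fold against endothelium was then -3.14.

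**Figure D4:**
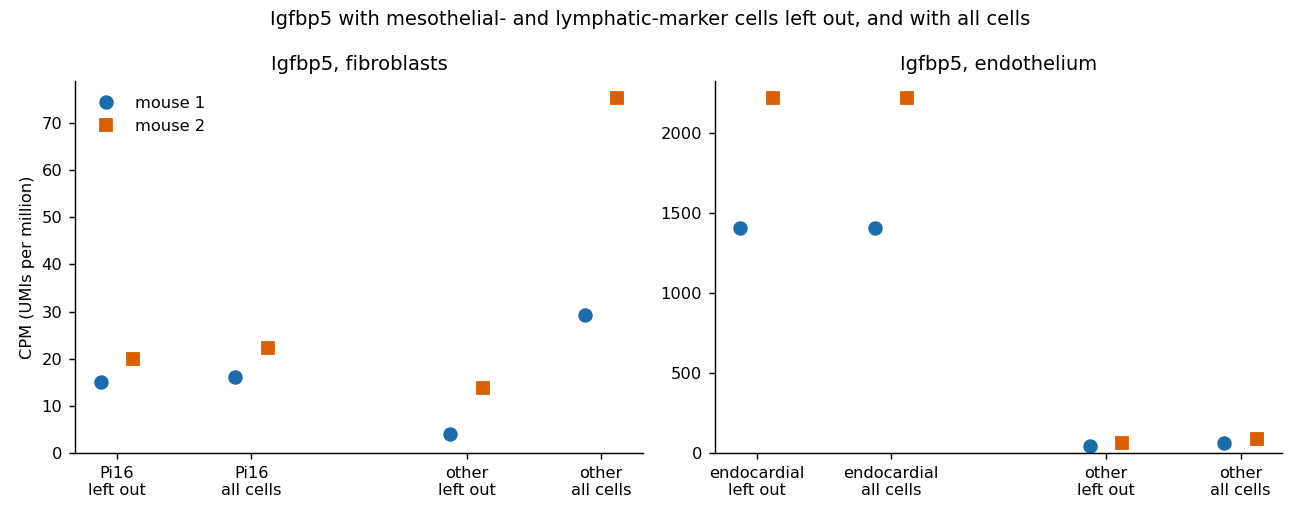
Level of Igfbp5 (vertical axis, CPM; the panels have separate scales) in Pi16 and other fibroblasts and in endocardial and other endothelium, with mesothelial- and lymphatic-marker cells left out and with all cells, for mouse 1 (circles) and mouse 2 (squares). Without those cells other fibroblasts stood at 4.03 and 13.8 CPM, against 29.3 and 75.2 CPM with them, while endocardial endothelium was at 1408 and 2218 CPM either way.

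Within endothelium, cells with at least 2 UMIs of Npr3 and Cytl1, markers of the endocardium that lines the chambers, were compared with the other endothelium. There were 38 and 40 of them (66056 and 76192 UMIs in all), against 875 and 1209 others. The endocardial markers that did not define the split summed to 3391 and 3202 CPM in endocardial cells, against 115 and 88.1 CPM in other endothelium. Of the 8 genes, 5 were called, 3 higher and 2 lower, where 2.44% of 11536 genes were called higher and 2.9% lower (5.34% in all).

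Igfbp5 had 1408 and 2218 CPM in endocardial endothelium (93 and 169 UMIs) and 64.2 and 91.8 CPM in other endothelium. It was higher in endocardial cells by 4.25 ± 0.20 (edgeR adjusted p = 2.30e-23) and was called under all 10 alternatives. An Igfbp5 UMI was found in 47.4% and 82.5% of endocardial cells, at median depths of 1649.5 and 1867 UMIs, against 2.51% and 3.56% of the other endothelial cells at 1449 and 1402 UMIs. The level was uneven, since 5 and 16 endocardial cells with at least 3 UMIs held 78.5% and 84.0% of the UMIs. In the other endothelium, 12 and 20 such cells held 88.5% and 86.3%, and the lymphatic markers there summed to 10592 and 17932 CPM, against 356 and 1303 CPM in the cells with no Igfbp5 UMI. With lymphatic and mesothelial cells left out, other endothelium had 44.7 and 63.4 CPM and the fold was 4.68.

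Igfbp7 moved the opposite way. It had 272 and 276 CPM in endocardial endothelium and 2902 and 2504 CPM in other endothelium, lower in endocardial cells by -3.59 ± 0.22 (edgeR adjusted p = 3.16e-19) and called under all 10 alternatives. An Igfbp7 UMI was found in 28.9% and 27.5% of endocardial cells, against 91.4% and 85.7% of the other endothelial cells. In macrophages, an Igfbp7 UMI was found in 17.1% and 14.7% of cells, and its level was 65.0 and 59.3 CPM. Median depths were 2845 and 2616 UMIs in macrophages, against 1649.5 and 1867 UMIs in endocardial cells. The part of RNA from other cells in the endocardial value was not tested. Igfbp4 had 182 and 157 CPM in endocardial endothelium (12 UMIs in each mouse) and 27.4 and 43.0 CPM in other endothelium. It was higher by 1.95 ± 0.41 (edgeR adjusted p = 0.000595), but the call was lost with cells thinned to 1000 UMIs (0.96, edgeR adjusted p = 0.381, range over the alternatives 4.9e-06 to 0.38) and with doublets kept (0.63).

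Igfbp3 had 15.1 and 39.4 CPM in endocardial endothelium (1 and 3 UMIs) and 90.3 and 106 CPM in other endothelium. It was lower by -2.09 ± 0.61 (edgeR adjusted p = 0.0258), and 4 of the 10 alternatives lost the call, with the adjusted p between 0.0038 and 0.15 over all of them. Igfbp6 had 394 and 52.5 CPM in endocardial endothelium and 8.03 and 9.96 CPM in other endothelium, a fold of 4.26 ± 0.52 (edgeR adjusted p = 1.27e-08). The endocardial counts were 26 UMIs in mouse 1 and 4 in mouse 2, and 2 cells held 17 of the 26, so the size of that fold is uncertain. The 10 fibroblast markers summed to 712 and 381 CPM in endocardial cells, against 145 and 135 CPM in other endothelium. In the 2 cells of mouse 1 these fibroblast markers were at 0, while 5 markers of adventitial fibroblasts (Cd248, Dpp4, Sema3c, Ly6a and Ackr3) summed to 5976 CPM. Those 5 summed to 471 CPM in the endocardial cells of that mouse with no Igfbp6 UMI. The sum was not split by gene, so which of the 5 it came from is not known. The part of RNA from fibroblasts in this fold was not tested. Igf1r and Igf2r were at 99.9 ± 29.95 and 82.8 ± 31.4 CPM in endocardial endothelium and at 44.7 ± 0.18 and 41.8 ± 0.52 CPM in other endothelium (SD, n = 2 each), and neither was called (edgeR adjusted p = 0.375 and 0.500). Of the 10 alternatives, 1 called Igf2r, with doublets and cells of several gates kept (1.40, edgeR adjusted p = 0.00673).

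Arterial endothelium, with at least 2 UMIs of Gja5, Gja4 and Sema3g, held 14 and 20 cells. Of the 8 genes, 1 was called higher there than in other endothelium, where 0.217% of all genes were called higher and 1.01% lower (1.23% in all). Igfbp4 had 289 and 171 CPM in arterial endothelium (6 UMIs in each mouse) and 27.4 and 43.0 CPM in other endothelium, a fold of 1.95 ± 0.55 (edgeR adjusted p = 0.0449). The call was lost with doublets kept (-0.066), with cells thinned (1.18) and without the replicate block (1.97, edgeR adjusted p = 0.0689, range over the alternatives 0.00085 to 0.94). Igfbp3 had 289 and 199 CPM in arterial endothelium (6 and 7 UMIs) and 90.3 and 106 CPM in other endothelium, which gave 0.60 ± 0.48 (edgeR adjusted p = 0.658). The median log2 fold change of all genes was -1.07 in this comparison.

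**Figure D5:**
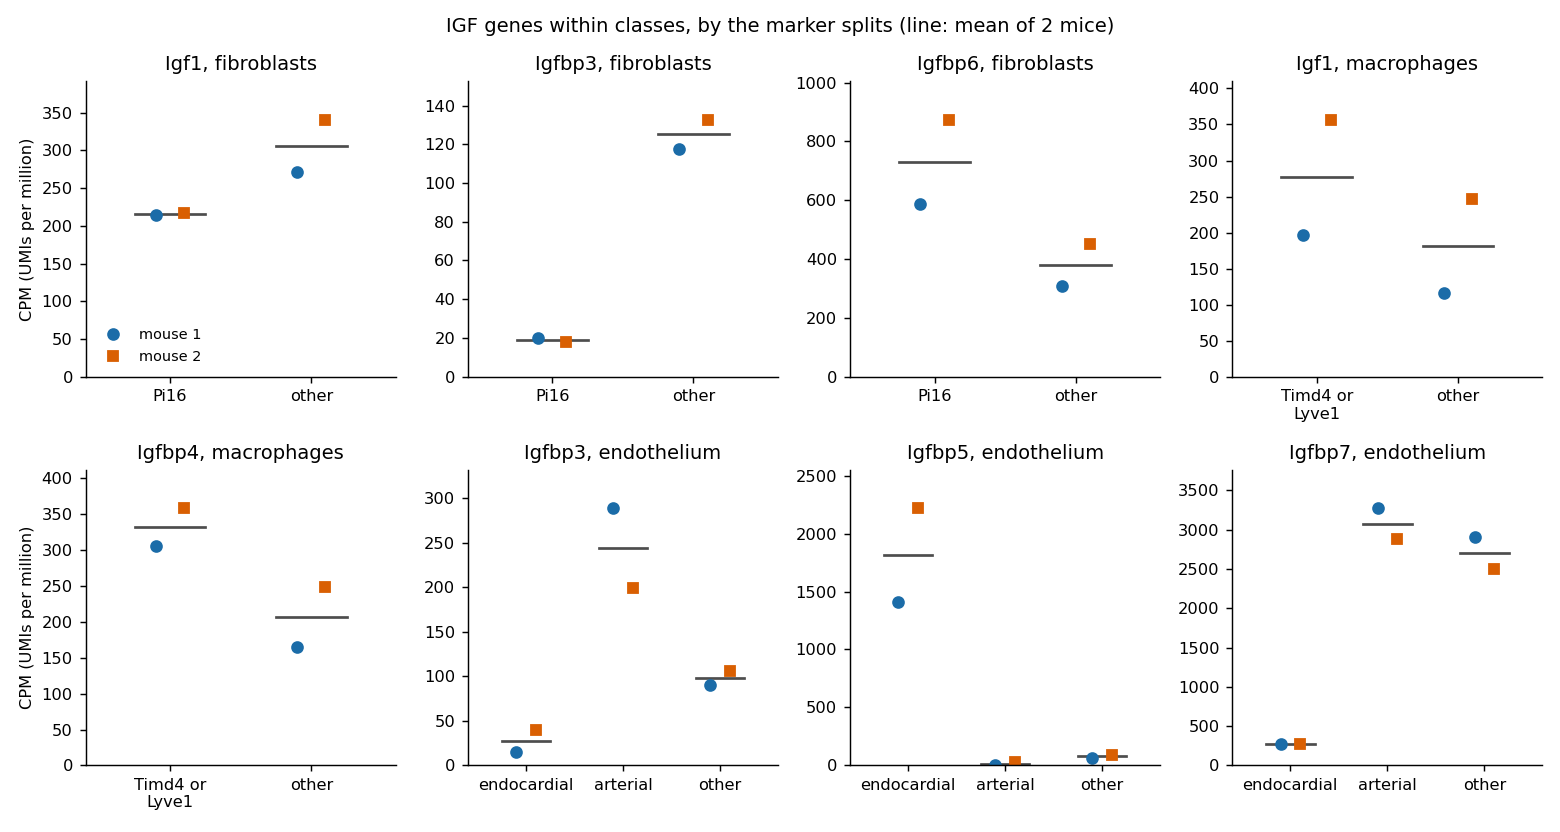
Level (vertical axis, CPM, linear from 0) of genes within a class by the marker splits, for mouse 1 (circles) and mouse 2 (squares), with a line at the mean of the 2 mice. The panels show Igf1, Igfbp3 and Igfbp6 in Pi16 and other fibroblasts, Igf1 and Igfbp4 in Timd4 or Lyve1 and other macrophages, and Igfbp3, Igfbp5 and Igfbp7 in endocardial, arterial and other endothelium, where Igfbp5 was at 1408 and 2218 CPM in endocardial cells and Igfbp7 at 272 and 276 CPM.

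Within macrophages, cells with at least 2 UMIs of Timd4 and Lyve1, markers of long-lived resident macrophages, were compared with the others. There were 1842 and 984 of them, against 1155 and 1377 others, and further resident markers summed to 4877 and 5452 CPM there, against 1846 and 2409 CPM in other macrophages. None of the 8 genes was called by edgeR, where 0.745% of 11536 genes were called higher and 1.27% lower (2.01% in all), although 2 of them, Igf1 and Igfbp4, had an unadjusted p under 0.05 and passed the adjusted p, but missed the fold. The adjusted p of Igf1 ran from 0.0047 to 0.95 over the alternatives and that of Igfbp4 from 0.0011 to 0.45, in both highest without the replicate block. DESeq2 also called 0. Igf1 had 196 and 357 CPM in Timd4 or Lyve1 macrophages and 116 and 247 CPM in other macrophages. It was higher in each mouse, by 0.57 ± 0.17 (edgeR adjusted p = 0.0322), while the groups overlapped between mice. Igfbp4 had 305 and 358 CPM in Timd4 or Lyve1 macrophages and 165 and 249 CPM in other macrophages, 0.63 ± 0.16 higher (edgeR adjusted p = 0.00893), with no overlap. From cells with no UMI of the markers to those with at least 3, Igf1 was at 103, 149, 203 and 195 CPM in mouse 1 and at 216, 323, 358 and 356 CPM in mouse 2. Igfbp4 was at 136, 234, 279 and 309 CPM in mouse 1 and at 222, 316, 337 and 365 CPM in mouse 2.

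The 2 mice were set side by side within a class with no test, as each gave 1 library. Igf1 in macrophages was at 169 CPM in mouse 1 and 298 CPM in mouse 2, a ratio of 0.566 (95% counting interval 0.529 to 0.605), and it was lower in mouse 1 in both macrophage groups. In fibroblasts the ratio of mouse 1 to mouse 2 was 0.844 for Igf1 (0.774 to 0.920), 0.732 for Igfbp6 (0.691 to 0.776), 0.693 for Igf2r (0.583 to 0.823) and 1.02 for Igfbp7 (1.0008 to 1.04). With mesothelial and lymphatic cells left out, Igfbp5 in fibroblasts was at 10.9 CPM in mouse 1 and 16.8 CPM in mouse 2, against 21.2 and 49.4 CPM with them. The mice also differed in neutrophils, at 69 cells in mouse 1 and 2 in mouse 2, and in the myocyte RNA given above. The part of these differences in the ratios was not tested.

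A list of 50 further genes of the pathway was examined (other ligands and binding proteins, proteases that cut binding proteins, adaptors, growth hormone signalling and PI3 kinase signalling), of which 40 passed the filter on low counts. In fibroblasts over endothelium 13 were called higher and 4 lower (42.5%, against 30.8% of all genes), with a median log2 fold change of 0.50 beside 0.033 for all genes. In fibroblasts over macrophages 15 were higher and 2 lower (42.5%, against 37.8% of all genes, median 0.29 beside 0.021). In fibroblasts over mural cells the counts were 6 and 3 (22.5% against 11.2%, median 0.58 beside 0.40). In endothelium over macrophages they were 10 and 10 (50% against 33.3%, median 0.028 beside -0.022). In mural cells over endothelium 6 were higher and 3 lower (22.5% against 11.8%, median -0.21 beside -0.39). Mural cells over macrophages also gave 6 and 3 (22.5%, near the 22.6% of all genes, median -0.17 beside -0.41). In the splits, edgeR and DESeq2 called 0 of them for Pi16 fibroblasts (against 1.46% of all genes by edgeR, median -0.057 beside -0.0090, 8 at an unadjusted p under 0.05). Both also called 0 for Timd4 or Lyve1 macrophages (against 2.01% by edgeR, median 0.031 beside -0.0086, 5 at an unadjusted p under 0.05). In endocardial endothelium 3 were higher and 1 lower (10% against 5.34%, median -0.10 beside -0.36). In arterial endothelium 1 was higher (2.5% against 1.23%, median -0.69 beside -1.07).

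The secreted serine proteases Htra1 and Htra3, of which HTRA1 is known to cut IGFBP5, were among the genes with the largest folds. Htra3 had 1455 ± 234 CPM in fibroblasts and 18.99 ± 1.88 CPM in endothelium (SD, n = 2 each), a log2 fold change of 6.31 ± 0.18 (edgeR adjusted p = 3.93e-21), and it was 5.85 ± 0.16 higher in fibroblasts than in macrophages (19.5 ± 1.42 CPM). Htra1 had 213 and 306 CPM in fibroblasts, 177 and 304 CPM in mural cells, 24.6 and 25.3 CPM in endothelium and 1.84 and 2.58 CPM in macrophages. It was higher in fibroblasts than in endothelium by 3.43 ± 0.18 (edgeR adjusted p = 2.17e-15) and higher in mural cells than in endothelium by 2.82 ± 0.34 (edgeR adjusted p = 3.02e-07). In arterial endothelium it was the gene of the list that was called, at 3.43 ± 0.48 (18 UMIs, edgeR adjusted p = 2.77e-06). Pappa, the protease of IGFBP4, lay under the level set for naming and was singled out after its values were seen. It had 52 and 38 UMIs in fibroblasts, 0 in mural cells, 0 in endothelium, and 0 and 1 UMIs in macrophages.

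The receptor Lrp1, which is known to bind IGFBP3, had 587 and 434 CPM in fibroblasts, 288 and 107 CPM in mural cells, 9.46 and 8.92 CPM in endothelium and 146 and 117 CPM in macrophages. It was higher in fibroblasts than in endothelium by 5.82 ± 0.22 (edgeR adjusted p = 7.11e-19) and lower in endothelium than in macrophages by -4.23 ± 0.22 (edgeR adjusted p = 1.08e-15). Grb10, an adaptor that dampens signalling of IGF1R and the insulin receptor, was higher in fibroblasts (64.1 ± 3.14 CPM) and endothelium (77.8 ± 7.72 CPM) than in macrophages (0.965 ± 0.140 CPM), by 5.67 ± 0.27 and 5.89 ± 0.28. Socs2, a brake on growth hormone signalling, was likewise higher in fibroblasts and in endothelium than in macrophages, by 5.87 ± 0.24 and 5.68 ± 0.24. Its levels were 243 ± 131 CPM in fibroblasts, where the mice lay far apart, 208 ± 33.4 CPM in endothelium and 3.13 ± 0.775 CPM in macrophages. Ghr, the growth hormone receptor, was 2.47 ± 0.57 higher in fibroblasts than in mural cells (4 mural UMIs). Adam9, a membrane protease, was 2.15 ± 0.22 higher in fibroblasts than in endothelium and lower in endothelium than in macrophages (-2.26 ± 0.21). The PI3 kinase subunit gene Pik3r1 was higher in mural cells than in endothelium, by 1.67 ± 0.31. Adamts1 was 5.37 ± 0.22 and the transcription factor Foxo1 1.78 ± 0.17 higher in endothelium than in macrophages, and the translation repressor Eif4ebp1 was lower (-1.25 ± 0.16), a call that 2 of its 10 alternatives lost.

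In endocardial endothelium the ligand gene Igf2 and its neighbour H19, a pair of imprinted genes, were the list's genes with the largest folds among those at the level set for naming. Igf2 had 90.8 and 236 CPM in endocardial endothelium (6 and 18 UMIs) and 4.01 and 5.77 CPM in other endothelium, a log2 fold change of 4.77 ± 0.63 (edgeR adjusted p = 9.39e-08). H19 had 590 and 577 CPM in endocardial endothelium and 11.4 and 3.67 CPM in other endothelium, 6.05 ± 0.41 higher (edgeR adjusted p = 1.37e-16). H19 was called in 9 of its 10 alternatives. Igf2 had at most 3.33 CPM in the fibroblasts of either mouse. Socs2 was lower in endocardial endothelium by -1.45 ± 0.38 (edgeR adjusted p = 0.0113), and 5 of its 10 alternatives lost the call.

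The genes with the pattern most like each of the 8 were found by Pearson's r of log2(CPM + 10) over 16 sums (8 cell groups in each of 2 mice), among 5170 genes with at least 50 CPM in some group in each mouse. The sums share libraries and cells, so r is a description. For Igfbp6 they were Ctsk (0.98), Mfap5 (0.98) and Ptgis (0.96), for Igfbp7 Sparcl1 (0.98), Tuba1a (0.97) and Sparc (0.96), and for Igf2r Cuedc1 (0.96), Ebf1 (0.96) and Rab18 (0.95). For Igf1r they were Amn1, Tcf7l2 and Ncor1 (0.95 each), for Igfbp5 Adgra2 (0.94), Tmpo (0.93) and Ahdc1 (0.92), and for Igf1 Cnpy3 (0.93), Cmklr1 (0.93) and AI607873 (0.92). For Igfbp3 they were Tbl1x (0.91), Cdkn1c (0.90) and Dnm3 (0.89), and for Igfbp4 Fgfr1 (0.93), Tmed3 (0.87) and Ostc (0.84).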

How the data were processed

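The deposited count tables, 1 per mouse, hold UMI counts per gene and cell barcode as the authors made them with Cell Ranger 2.2.0 on mm10, per the submitters' processing notes, which also name FastQC. The counting strand is not given in the sources used here. The files hold 7732 and 6367 barcodes with 21355383 and 15174548 UMIs in mouse 1 and mouse 2. Cells with under 500 UMIs, under 300 genes or over 10% mitochondrial UMIs were left out (719 and 432), then doublets called by Scrublet in scanpy 1.11.5 (405 and 248), which left 6608 and 5687 cells with medians of 2542.5 and 2194 UMIs.

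Counts were summed per class and mouse. Sums were tested over all genes past edgeR's filter on low counts with edgeR 4.0.16 in R 4.3.3 (quasi-likelihood test, TMM scaling, Benjamini-Hochberg adjustment), with 3 residual degrees of freedom over the 8 class sums and 7 over the 16 sums of the splits. The mouse was a block, because the classes compared come from the same animals. The script was tested on simulated data. Errors of CPM are SD over 2 mice, and intervals are exact at 95% and cover counting error only. The alternatives were both gate and split thresholds doubled, doublets and cells of several gates kept, cells thinned to 1000 UMIs, no cell filter, RLE scaling, no filter on low counts, DESeq2 1.42.0 and no block, and each mouse left out in turn. Library size scaling alone, and leaving out mesothelial and lymphatic cells, were added after seeing the data. The members, marker lists and pathway list were chosen with earlier results of these data known. All 8 members are named. Of the pathway list, up to 4 called genes per direction were named by size of fold, with at least 50 CPM in both mice of the higher group. A gene that met this rule is not reported here. Positions are from GENCODE M21 (GRCm38) and sequences from RefSeq (GRCm38.p6). Figures were drawn with matplotlib 3.10.9.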

Additional observations from a re-analysis of the deposited data

How the results depend on the processing

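Over 10 alternatives, of which 2 were chosen after seeing the data, the log2 fold changes of the 8 genes kept direction and call in 730 cases, lost the call with the same direction in 16, gained it in 7 and changed sign in 39, and the cause was not tested. Of the 39, 3 also lost a call: Igfbp4 in mural cells over endothelium and in arterial endothelium with doublets kept, and Igfbp5 in Pi16 fibroblasts without mesothelial and lymphatic cells. Sign changes on summed UMIs alone, with no TMM scaling, were Igf1r (-0.041) in fibroblasts over endothelium, Igf1 (0.21) over macrophages, Igf2r (-0.37) and Igfbp3 (-0.085) over mural cells, Igfbp6 (0.66) in mural cells over macrophages and Igfbp7 (0.18) in arterial endothelium. Igf1r in fibroblasts over endothelium, near 0 throughout, was also negative with thinned cells (-0.060), no cell filter (-0.016), mesothelial and lymphatic cells left out (-0.034), RLE scaling (-0.0061) and DESeq2 (-0.014). Igf2r in fibroblasts over mural cells was negative with thresholds doubled (-0.10), RLE scaling (-0.0082) and DESeq2 (-0.0056).

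With doublets and cells of several gates kept, mural cells over endothelium gave -0.043 for Igfbp4, -0.053 for Igfbp5 and 0.067 for Igfbp7. The same setting gave 0.43 for Igfbp6 in mural cells over macrophages, -0.099 for Igf1r in Pi16 fibroblasts, and -0.066 for Igfbp4 and 0.0079 for Igfbp5 in arterial endothelium. In Timd4 or Lyve1 macrophages it gave 0.12 for Igf1r, -0.033 for Igfbp3, 0.14 for Igfbp6 and -0.11 for Igfbp7. Thresholds doubled gave -0.0029 for Igfbp5 in mural cells over endothelium, -0.012 for Igf2r in Pi16 fibroblasts, 0.76 for Igfbp5 and -0.087 for Igfbp7 in Timd4 or Lyve1 macrophages, and 0.51 for Igf1 in endocardial endothelium. Thinned cells gave 0.81 for Igfbp6 in mural cells over macrophages, and -0.18 for Igfbp3 and -0.15 for Igfbp7 in Timd4 or Lyve1 macrophages. With no cell filter Igf1r was at -0.013 in Pi16 fibroblasts (also -0.013 by DESeq2), Igfbp7 at -0.047 in Timd4 or Lyve1 macrophages and Igf1 at 0.23 in endocardial endothelium. Without mesothelial and lymphatic cells, Igfbp5 in Pi16 fibroblasts was at 1.06, and at 0.61 in Timd4 or Lyve1 macrophages.

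Of the 8 genes, the 1 called in mural cells over endothelium became 0 with thresholds doubled, doublets kept, thinned cells, no cell filter or no replicate block. The 1 called in arterial endothelium became 0 with doublets kept or no replicate block, and the 2 in Pi16 fibroblasts became 1 with no replicate block. With thinned cells the arterial count stayed at 1, as Igfbp4 lost its call and Igfbp5 gained one (-8.70, edgeR adjusted p = 0.0437). Igfbp5 had 0 and 1 arterial UMIs before thinning. Of all genes, the 1383 called in mural cells over endothelium became 353 with doublets kept. The 168 of Pi16 fibroblasts became 101 with thinned cells, 74 by DESeq2 and 50 without the replicate block. The 232 of Timd4 or Lyve1 macrophages became 133 with thresholds doubled, 146 with thinned cells, 113 by DESeq2 and 80 without the replicate block. The 142 of arterial endothelium became 363 with thinned cells, 230 without mesothelial and lymphatic cells, 59 with RLE scaling, 237 with no filter on low counts, 70 by DESeq2, 93 without the replicate block and 61 on summed UMIs alone. Its split was not run with thresholds doubled, which left 1 cell per mouse. Apart from Igfbp4 and Igfbp5 as given, Igfbp3 in endocardial endothelium lost its call without the replicate block (-2.09, edgeR adjusted p = 0.0887, range over the alternatives 0.0038 to 0.15). Leaving out 1 mouse gives values with no test. Mural, endocardial and arterial values rest on 14 to 63 cells per mouse.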

Other observations

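Outside the 4 classes and the minor types, cells that passed none of the gates held 76 and 115 Igfbp5 UMIs in mouse 1 and mouse 2, at 184 and 188 CPM. In monocytes or dendritic cells Igfbp7 was at 56.1 and 59.6 CPM, and in T cells at 64.3 and 37.1 CPM, near its level in macrophages (65.0 and 59.3 CPM).

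Among macrophages, the 113 and 226 cells with at least 3 Igf1 UMIs held 25.8% and 42.5% of the Igf1 UMIs of the class. The 5 resident macrophage markers summed to 4395 and 5167 CPM in them, against 3430 and 3083 CPM in the macrophages with no Igf1 UMI. The 10 fibroblast markers summed to 71.7 and 93.2 CPM in them, against 99.5 and 90.2 CPM in those with none.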
